A study of Drosophila melanogaster with 3 samples.

Results

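The ecdysone cascade genes EcR, usp, Eip74EF, br, Eip75B, Eip78C, Hr3, Hr4, Hr39 and ftz-f1 were examined for peaks of the tagged transcription factor Tango. They were taken by gene name from the Ensembl annotation of the Drosophila genome (BDGP release 6), as 10 of 13968 protein-coding genes on the major chromosome arms. Of the 10 members, 8 encode nuclear receptors, while br encodes a BTB zinc-finger factor and Eip74EF an ETS-domain factor. The data are chromatin immunoprecipitations with an anti-GFP antibody from whole Drosophila embryos of 0 to 24 h carrying a tgo-eGFP transgene (strain tgo-GFP), in 3 biological replicates that form 1 group. Chromatin was sonicated to 200 to 800 bp. Peak lists derived from each replicate and a control were deposited on the dm6 build, and no list from untagged embryos was used here, so peaks of Tango and peaks of any other origin cannot be told apart. Whole embryos also mix tissues and hours of development, so binding in few cells and weak binding in many cells cannot be told apart.

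Ecdysone is the steroid hormone that times moults and metamorphosis in insects, and a pulse of it in the mid-stage embryo accompanies germ band retraction, head involution and the laying down of cuticle. The hormone binds a dimer of the nuclear receptors EcR and Usp, which induces early genes such as Eip74EF, br and Eip75B. Their products act on early-late genes such as Hr3 and Hr4, and ftz-f1 is induced as the hormone level falls. Tango is the shared dimer partner of bHLH-PAS proteins, among them Single-minded in the midline, Trachealess in the trachea and Sima in the response to low oxygen, and it is the fly counterpart of mammalian ARNT.

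The thresholded lists held 3617, 4759 and 3027 peaks in replicates 1, 2 and 3, and the reads behind them were not counted in any source used here. Each gene was given a territory of its body plus 2 kb upstream. Summits of the 3 lists within 150 bp of each other were joined into regions, and a region found in at least 2 of the 3 lists was called a core region. This gave 5569 regions and 3463 core regions over the genome. Strength is stated as the percentile of the deposited signal value within a replicate's own list, from 0 for the weakest to 100 for the strongest peak. Intervals on shares (95%, Wilson) and on densities (95%, exact Poisson) cover counting error only.

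Core regions lay at 8 of the 10 members, namely EcR, usp, Eip74EF, br, Eip75B, Hr3, Hr4 and ftz-f1, while Hr39 and Eip78C had none. The share of 80.0% had an interval of 49.0 to 94.3%, and 23.1% of all protein-coding genes held a core region. The same 8 members held a region found in all 3 lists, against 17.5% of all genes. The members are long genes, with territories of 5.51 kb for usp and 24.4 to 115.7 kb for the others, and length bears on these counts. Among genes of at least 20 kb, 51.0% held a core region, and 7 of the 9 members of that length did (77.8%, interval 45.3 to 93.7%). The interval for the members therefore includes the share for all long genes. At least 2 core regions were found at 6 of the 10 members, against 4.93% of all genes. All 6 were among the 9 long members (66.7%, interval 35.4 to 87.9%), against 27.0% of all genes of at least 20 kb.

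The 10 territories held 43 regions, of which 27 were core and 18 were in all 3 lists. Hr4 held 10 of the core regions and ftz-f1 held 6, so these genes together held more of them than the other 8 members combined. Hr3 held 3, EcR, Eip74EF and Eip75B held 2 each, and usp and br held 1 each. The joint majority of Hr4 and ftz-f1 did not hold under every rule. Of the 18 regions in all 3 lists, Hr4 held 7 and ftz-f1 held 2. In the authors' conservative list of the whole series, Hr4 and ftz-f1 held 10 of 45 peaks each, and Eip75B held 11. The members carried 46.5 core regions per Mb (interval 30.6 to 67.6), compared with 25.2 per Mb over all arms and 22.5 per Mb (21.2 to 23.7) over the territories of at least 20 kb. Without Hr4 the density was 33.1 per Mb (19.3 to 53.0), and without Hr4 and ftz-f1 it was 23.9 per Mb (11.9 to 42.7). Hr4 and ftz-f1 were set aside because they held the most, so a lower remaining density follows from that choice. The other members ranged from 0 per Mb at Hr39 and Eip78C and 10.9 at br to 84.9 at Hr3 and 181 at usp, whose value is 1 region in 5.51 kb.

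**Figure D1:**
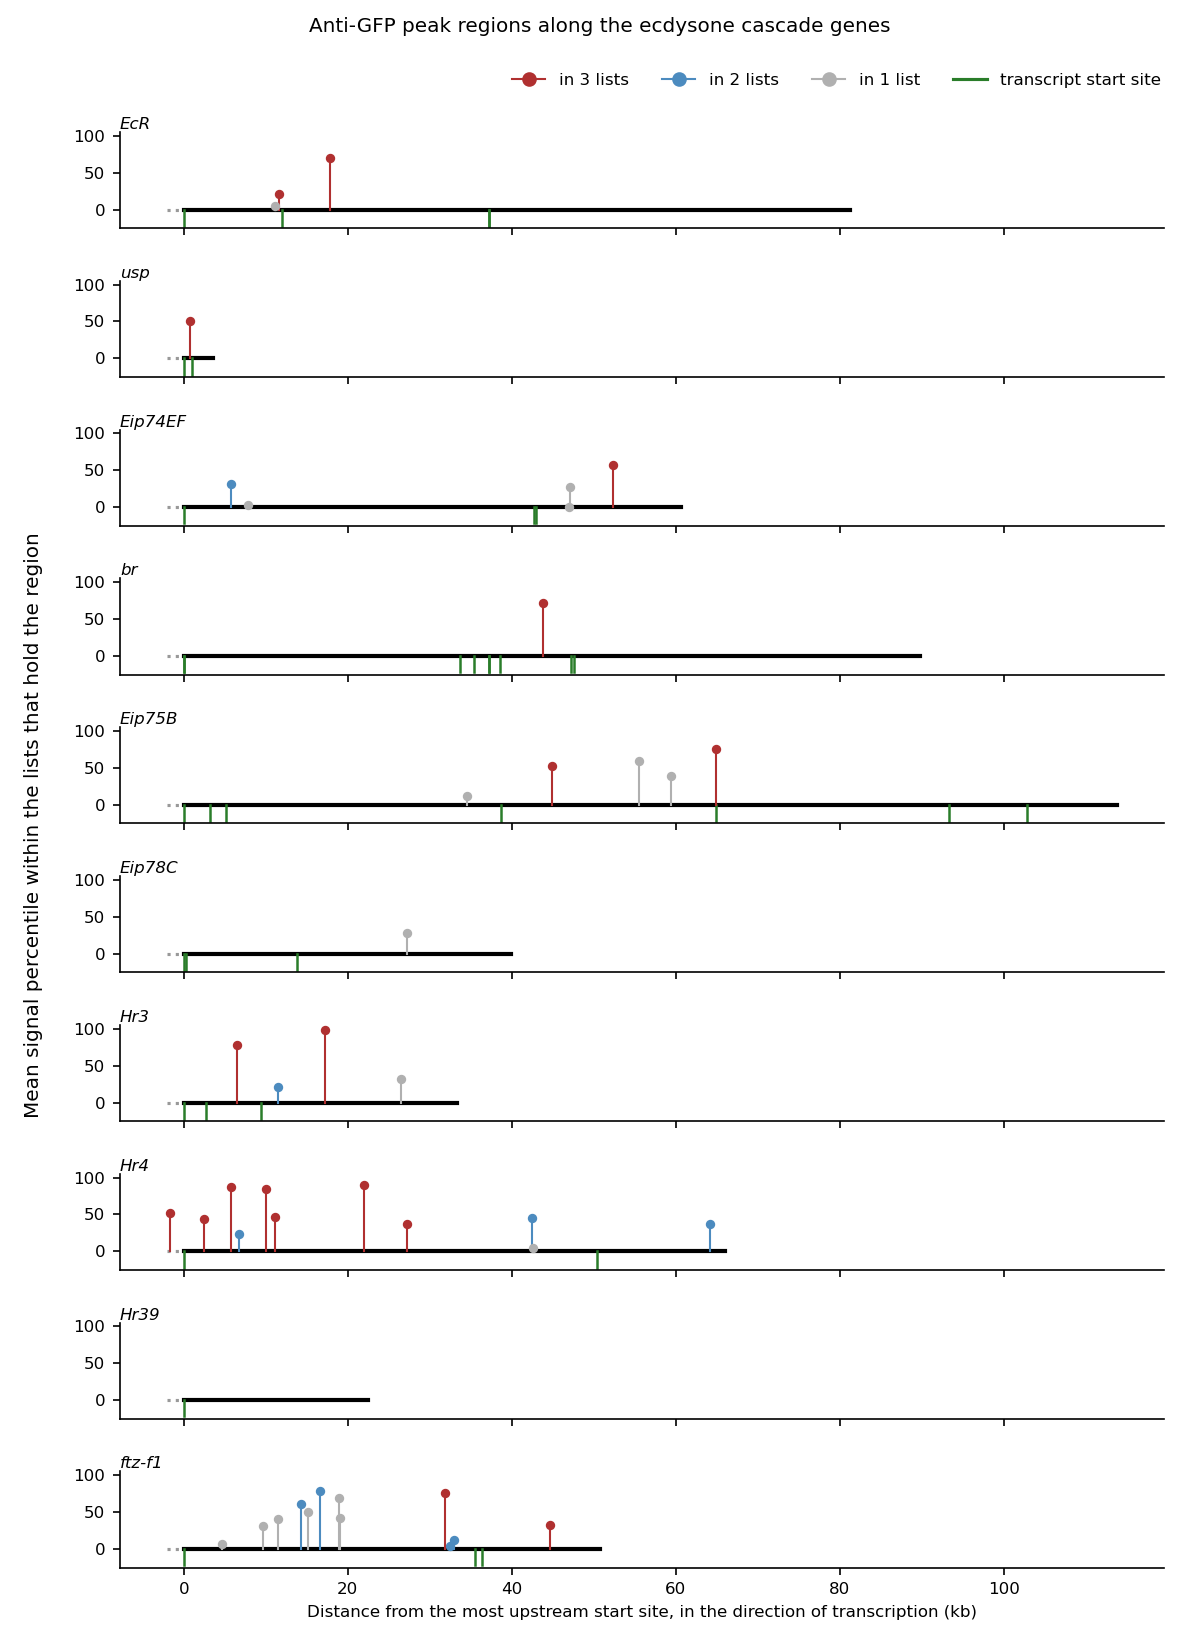
Regions along each of the 10 genes, by distance in kb from the most upstream start site in the direction of transcription. Height is the mean signal percentile over the lists that hold the region, colour is the number of lists, green ticks are start sites and the dotted line is the 2 kb upstream; the regions of Hr4 and ftz-f1 are spread over their bodies, and Hr39 has none.

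DNA is shown from core regions that were in all 3 lists and whose windows were clear of annotated UTRs. For Hr4, which carried the most core regions, these are its 3 strongest regions and the weaker one that held GCGTG. For ftz-f1, br, Eip75B and Eip74EF it is the strongest region that met these conditions, and ftz-f1 and Eip75B each had a stronger core region whose window is not shown. Each sequence is the 100 bp centred on the core summit, read from the plus strand of the NCBI dm6 assembly. Capitals mark every match, on either strand, to any of the 10 short motifs that were searched. These were ACGTG, the core of the element bound by Tango with several of its partners, GCGTG, its variant known for the partner Spineless, AGGTCA, the nuclear receptor half-site, and AAGGTCA, an extended half-site that contains AGGTCA, as well as CGGAA, the ETS core. The rest were TATCGA (the core of the DREF element), GATAA (bound by GATA factors), GAGAG (bound by GAGA factor), CACTG (a word that stood out in earlier results of these data) and TATAA (of the TATA box).
Hr4, +22001 bp, chrX:1963891-1963990: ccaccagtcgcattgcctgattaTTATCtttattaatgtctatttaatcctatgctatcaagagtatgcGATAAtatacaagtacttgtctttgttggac
Hr4, +5792 bp, chrX:1947682-1947781: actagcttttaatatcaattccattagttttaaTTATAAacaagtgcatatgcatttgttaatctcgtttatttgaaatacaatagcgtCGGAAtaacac
Hr4, +9971 bp, chrX:1951861-1951960: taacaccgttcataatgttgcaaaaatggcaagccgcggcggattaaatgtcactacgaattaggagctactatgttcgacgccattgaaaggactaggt
Hr4, +11175 bp, chrX:1953065-1953164: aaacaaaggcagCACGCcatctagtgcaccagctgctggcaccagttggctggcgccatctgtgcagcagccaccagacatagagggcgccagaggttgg
ftz-f1, 3772 bp upstream of its start site, chr3L:18769466-18769565: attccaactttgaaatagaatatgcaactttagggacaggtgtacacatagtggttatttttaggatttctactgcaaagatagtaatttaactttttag
br, chrX:1618830-1618929: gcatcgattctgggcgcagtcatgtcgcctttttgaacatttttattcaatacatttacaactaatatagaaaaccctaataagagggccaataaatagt
Eip75B, +6244 bp, chr3L:18019738-18019837: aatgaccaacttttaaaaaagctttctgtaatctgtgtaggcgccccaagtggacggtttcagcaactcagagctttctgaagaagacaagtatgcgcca
Eip74EF, +9301 bp, chr3L:17566969-17567068: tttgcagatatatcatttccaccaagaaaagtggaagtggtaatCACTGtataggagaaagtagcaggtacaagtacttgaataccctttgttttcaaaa

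None of the 27 core windows of the members held ACGTG, against 5.52% of all 3463 core windows, and the interval for 0 of 27 reaches 12.5%. GCGTG was found in 1 window, the Hr4 window at +11175 bp printed above, where it reads CACGC on the plus strand (3.70% of the windows, against 5.40% of all). AGGTCA and AAGGTCA were found in none, against 1.82% and 0.780% of all core windows, and TATCGA in none, against 5.02%. CGGAA was in 2 windows, both at Hr4 (7.41%, against 8.35% of all). GATAA was in 5 windows (18.5%, against 24.3%), CACTG in 4 (14.8%, against 17.0%), GAGAG in 3 (11.1%, against 7.31%) and TATAA in 6 (22.2%, against 43.7%). The intervals of the members' shares include the share over all core windows for each of these motifs except TATAA, whose interval ran from 10.6 to 40.8%. Because 10 motifs were compared without correction and no share over intronic core windows was computed, a difference for TATAA is not resolved. In the 54 windows 500 bp to either side of the members' core summits, TATAA was in 7 (13.0%), below its share at the summits. ACGTG was also in 7 of these flank windows. The share in the flanks was above that at the summits for every motif except TATAA and GATAA (6 windows, 11.1%). The printed windows of ftz-f1, br and Eip75B and the one of Hr4 at +9971 bp held none of the 10 motifs, which says only that these letters are not in these windows. Single lists gave a few ACGTG matches that the core summits did not. In replicate 2, 3 of the thresholded summits at the members had ACGTG in their own 100 bp window, at EcR, Eip74EF and ftz-f1. Those at Eip74EF and EcR were joined into core regions and lay 73 and 199 bp from the core summit. The one at ftz-f1 lay 4658 bp from the nearest core summit. In the authors' conservative list of the whole series, which had 45 peaks at the members, 4 windows held ACGTG.

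EcR, the ecdysone receptor subunit, spans chr2R:6087873-6169087 on the minus strand and had 3, 3 and 2 thresholded summits in replicates 1, 2 and 3. Its stronger core region, chr2R:6151065-6151404, stood at percentiles 67.2, 74.2 and 68.6 in the 3 lists (mean 70.0 ± 3.68, SD, n = 3). It was intronic and lay 5894 bp downstream of the start site shared by EcR-RD and EcR-RE. The weaker one, chr2R:6157268-6157607, lay 309 bp upstream of that start site and stood at 34.1, 20.6 and 7.19 (20.7 ± 13.5, SD, n = 3). The percentile of the weaker region was below that of the stronger one in each list. The start sites of EcR-RG, EcR-RB and EcR-RC, by contrast, were more than 19 kb from the nearest core region, at 19394 and 19313 bp.

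The partner of EcR, Usp, is the fly counterpart of the vertebrate retinoid X receptor. The usp gene had 1 summit in each replicate, in 1 core region at chrX:2041343-2041682, 201 bp upstream of the usp-RA start site. It stood at percentiles 64.3, 40.9 and 47.9 (51.0 ± 11.99, SD, n = 3), the middle of each list. The usp territory overlaps Actn, the alpha-actinin gene, so the region cannot be assigned to usp by position.

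The early gene Eip74EF, which encodes the ETS factor E74, had 3, 4 and 1 thresholded summits. Its region in all 3 lists, chr3L:17566844-17567193, was intronic and stood at 48.3, 60.4 and 61.6 (56.8 ± 7.40, SD, n = 3). Counted in bases, the nearest start site of any protein-coding gene was that of CycT, at 9231 bp, with the nearest one of Eip74EF at 9301 bp. A weaker core region, 5720 bp inside the longest transcripts, stood at 42.4 in replicate 1 and 21.4 in replicate 2. In replicate 3 its candidate peak scored 79, where a score of 830 is needed to enter the thresholded list. Neither core region of Eip74EF lay in the promoter of one of its 3 start sites. In replicate 2, 2 further peaks with summits 200 bp apart overlapped each other, and the one of them at 0.620 by percentile had a deposited signal of 3.23 against 63.6 for its neighbour, although it carried the highest score, 1000.

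The br gene encodes the Broad proteins, which direct pupal development. It had 1 thresholded summit in each replicate, all in the core region chrX:1618763-1618972. This region stood at 85.7, 85.6 and 43.7 (71.7 ± 24.2, SD, n = 3), so replicate 3 ranked it far lower than the other lists, and the SD was the largest among the members' regions found in all 3 lists. It lies within br, 3428 bp upstream of the br-RS start site, and 725 bp upstream of a start site of Mur2B, a gene that overlaps br on the other strand. Its promoter class comes from Mur2B. None of the 9 start sites of br had a core region in its promoter.

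Eip75B encodes a heme-binding nuclear receptor that represses the activity of Hr3. It is the longest of the members and had 3, 2 and 4 thresholded summits. Its strongest region, chr3L:17999733-17999871, had its summit 10 bp downstream of the Eip75B-RC start site and stood at 74.8, 80.5 and 73.2 (76.2 ± 3.86, SD, n = 3). This was the closest of any core region to a start site of a member. The intronic region printed above stood at 32.9, 74.5 and 52.1 (53.2 ± 20.8, SD, n = 3). The other 3 regions were each in 1 list, and 2 of them missed a second list narrowly. The region at chr3L:18005095-18005444 scored 823 in replicate 1, and the one at chr3L:18029937-18030276 scored 820 in replicate 2. The Eip75B start sites other than that of Eip75B-RC lay 6244 to 41756 bp from the nearest core region.

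Hr3, an early-late receptor related to vertebrate ROR that activates ftz-f1, held the strongest region of all members. At chr2R:10219923-10220231 the percentiles were 98.2, 98.1 and 98.2 (98.2 ± 0.0701, SD, n = 3), and the deposited signal values were 586, 558 and 471. By mean percentile it was the 66th of the 3463 core regions. It lay in an intron, 7864 bp inside the transcripts Hr3-RA, Hr3-RF and Hr3-RH, and no list put it far from the others. A second region, chr2R:10230758-10230949, stood at 70.2, 75.7 and 87.5 (77.8 ± 8.84, SD, n = 3), 2875 bp upstream of the same start site. The third, in replicates 2 and 3, stood at 7.32 and 34.8, and its candidate in replicate 1 scored 713. No core region lay in the promoter of any of the 3 start sites of Hr3. The genes CG12912 and CG46321 overlap Hr3, so these regions too cannot be assigned by position.

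**Figure D2:**
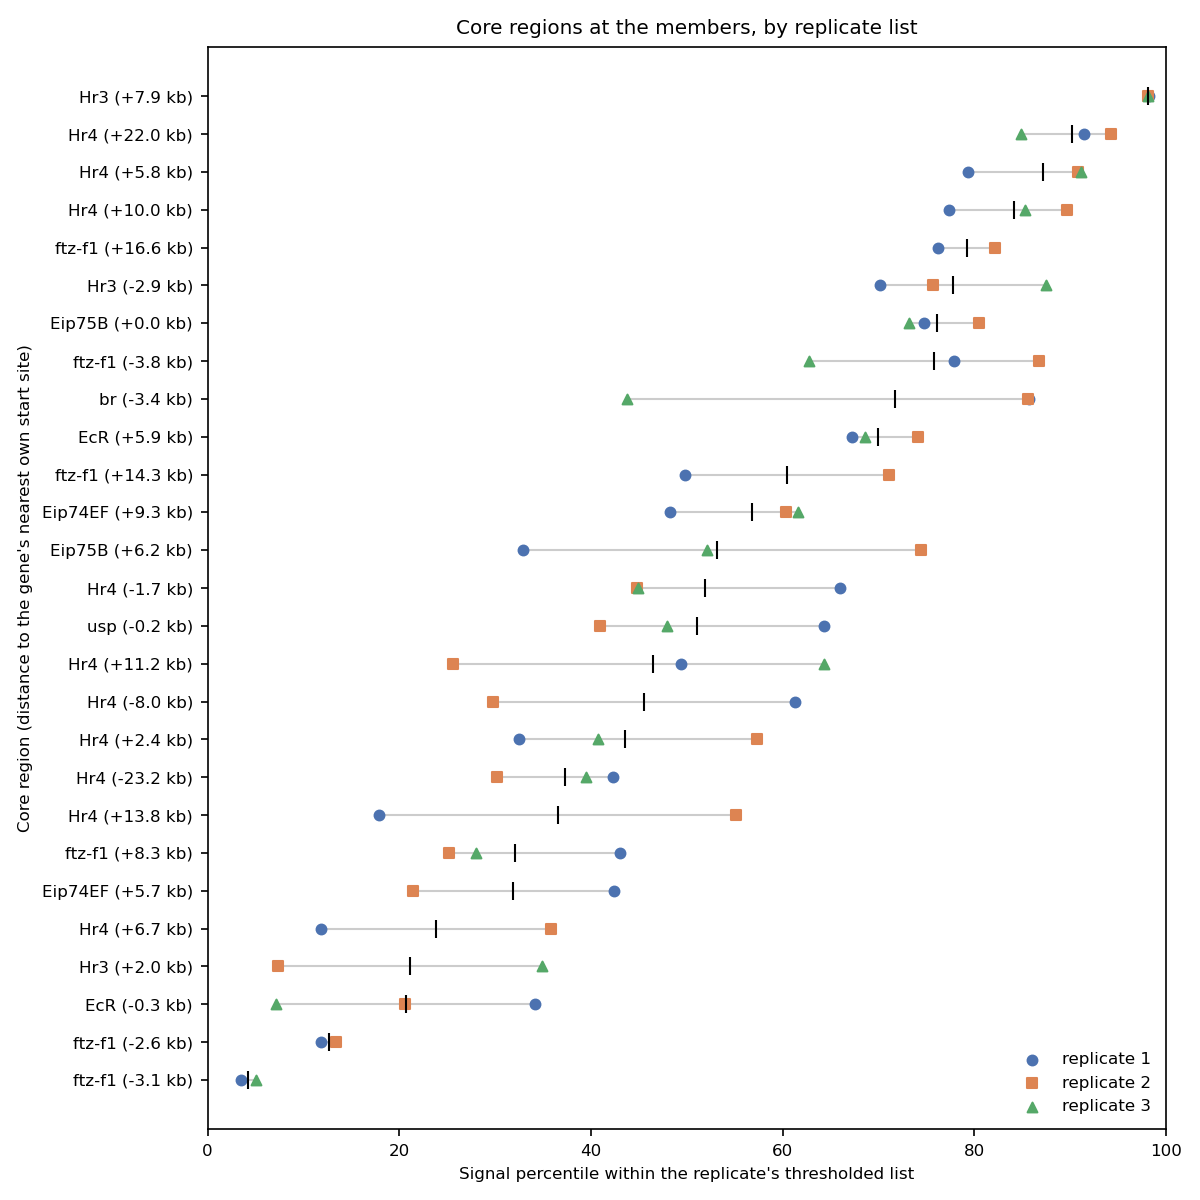
Signal percentile of each of the 27 core regions of the members in each replicate list that holds it, with the mean as a vertical bar and the distance in kb to the gene's nearest own start site in the label. The strongest region of Hr3 stays between 98.1 and 98.2, while that of br falls from 85.7 to 43.7.

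Hr4, an early-late receptor that represses early genes at the onset of metamorphosis, held the most core regions of any member. In the authors' conservative list, however, Eip75B held 11 peaks and Hr4 held 10. Hr4 had 10, 11 and 7 thresholded summits in replicates 1, 2 and 3, and 10 core regions, 7 of them in all 3 lists. The strongest, chrX:1963833-1964039, stood at 91.5, 94.3 and 84.8 (90.2 ± 4.83, SD, n = 3). The next, chrX:1947646-1947833, stood at 79.3, 90.9 and 91.2 (87.1 ± 6.74, SD, n = 3). A further one, chrX:1951810-1952014, stood at 77.4, 89.7 and 85.2 (84.1 ± 6.23, SD, n = 3). These 3 were intronic, each stood above 77 in each list, and their values overlapped, so their order among themselves is not resolved. The other 7 core regions of Hr4 had mean percentiles from 23.8 to 51.9.

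Only kirre (16 core regions), CG1677 (13), CHES-1-like (12) and Raf (12) had more core regions than Hr4 among all protein-coding genes, and sbb had as many, so Hr4 shared the 5th and 6th places. Hr4, kirre, CG1677, CHES-1-like and Raf are all on the X chromosome, whose arm carried 28.8 core regions per Mb (interval 26.7 to 31.1), against 25.2 over all arms. The Hr4 territory carried 147.0 per Mb (70.5 to 270.4). The core region farthest upstream, chrX:1940056-1940395, was 1714 bp upstream of the main Hr4 start site but 81 bp upstream of a start site of its neighbour CG3587, and its promoter class comes from that gene. The one farthest downstream, chrX:2005880-2006219, was the only core region of the members in a 3′ UTR and lay nearer to a start site of PIG-K, at 3314 bp. Neither start site of Hr4 had a core region in its own promoter. The 3 core regions missing from replicate 3 each had a candidate there, with scores of 343, 822 and 561.

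Hr39, a receptor related to ftz-f1, had 0 thresholded summits in each replicate, and its candidates numbered 4, 27 and 3 in the longer ranked lists. The best of them scored 128, 487 and 77, well under 830. A candidate at the Hr39 start site itself, with its summit 21 bp upstream, scored 27, 471 and 64. Eip78C, an early-late receptor required for normal egg production, had 0, 1 and 0 thresholded summits. That summit, in an intron at chr3L:21253707-21254046, stood at 27.5 in replicate 2, and the same place scored 279 in replicate 1 and 618 in replicate 3. The nearest core region to any start site of Hr39 lay at 26630 bp and to any of Eip78C at 36129 bp. At 0 core regions in 24.4 and 41.9 kb, counting error alone allows densities of up to 151 and 88.1 per Mb, so these genes cannot be told from the genome average.

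The ftz-f1 gene encodes the competence factor whose alpha form acts with Fushi tarazu in segmentation of the early embryo and whose beta form acts after the ecdysone pulse. It had 7, 10 and 3 thresholded summits and 6 core regions, of which 2 were in all 3 lists. The strongest of those 2, printed above, lay 3772 bp upstream of the start site of ftz-f1-RC and ftz-f1-RD and stood at 77.9, 86.8 and 62.7 (75.8 ± 12.1, SD, n = 3). The other, chr3L:18756438-18756777, stood at 43.1, 25.1 and 28.0 (32.1 ± 9.63, SD, n = 3). A region at chr3L:18784697-18784837 stood higher than either, at 76.2 and 82.2 in replicates 1 and 2, and scored 675 in replicate 3. All 6 were intronic. The gene shared the 19th to 32nd places among all genes by number of core regions. It also had 6 regions found in 1 list, the most of any member, 5 of them in replicate 2. A pair of these, from replicates 1 and 2, had overlapping intervals and summits 161 bp apart, just beyond the 150 bp within which summits were joined. The long noncoding RNA gene lncRNA:CR45939 overlaps ftz-f1.

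**Figure D3:**
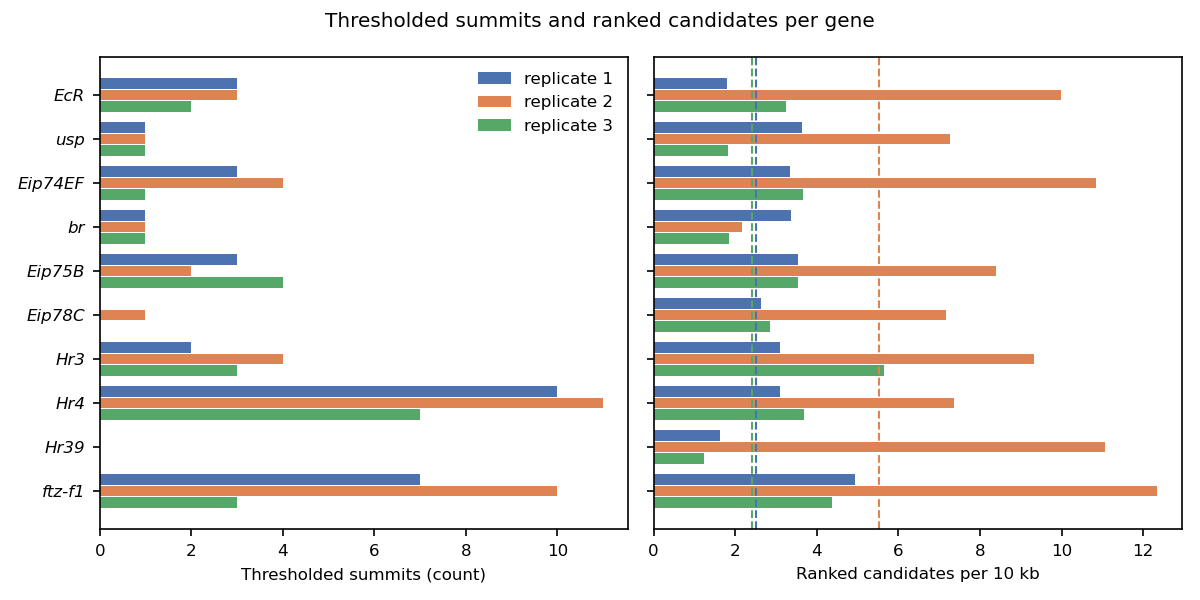
Left, thresholded summits per gene and replicate. Right, ranked candidates per 10 kb of territory, with dashed lines for the genome average of each replicate; replicate 2 had the most candidates at each gene except br, where it had 2.18 per 10 kb against 5.52 over the genome.

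The replicates called different numbers of peaks at mostly the same members, with a thresholded summit at 8, 9 and 8 of them. The share of all genes with a summit in each list was not computed, so these counts describe the members only. The thresholded lists had 30, 37 and 22 summits at the members, which is 0.832, 0.777 and 0.727% of each list (0.779 ± 0.0526%, SD, n = 3). The ranked lists had 183, 477 and 192 candidates there, or 3.15, 8.21 and 3.30 per 10 kb, against 2.52, 5.52 and 2.41 over the genome. The density of candidates at the members was above the genome's in each replicate. The genome's density is over the full length of all arms, including 4 and Y, which carried 5.19 and 0 core regions per Mb. No density of candidates over territories of at least 20 kb was computed, so a difference from other long genes is not resolved. Of candidates at the members, 16.4, 7.76 and 11.5% passed the threshold, against 10.6, 6.41 and 9.33% of all candidates, again higher at the members in each replicate. This was not a trait of each member. At Hr4, 10 of 21, 11 of 50 and 7 of 25 passed, and at ftz-f1 7 of 26, 10 of 65 and 3 of 23. At br, by contrast, 1 of 31, 1 of 20 and 1 of 17 passed, and at Hr39 none did, below the share of all candidates in each replicate. EcR in replicate 2 had 83 candidates, against 15 and 27 in replicates 1 and 3, and its thresholded summits nevertheless numbered 2 or 3 in each. The br gene, the second longest of the members, was the one gene without an excess of candidates in replicate 2, with 20 there against 31 and 17.

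Of the 9 core regions of the members found in 2 lists, 7 were missing from replicate 3, 1 from replicate 2 and 1 from replicate 1. Over the genome, 67.1% of the 1193 core regions found in 2 lists were missing from replicate 3, which had the shortest list. The missing list held a weaker candidate for 8 of the 9 members' regions. Of the 16 regions found in 1 list, 10 were from replicate 2, 4 from replicate 1 and 2 from replicate 3. Over the genome, 63.6% of the 2106 regions found in 1 list were from replicate 2, 20.1% from replicate 1 and 16.3% from replicate 3. The members thus followed the lists as a whole. Both other ranked lists held a candidate for 10 of the members' 16, 1 other list did for 5, and neither did for the remaining one, the weak Eip74EF peak at 0.620. The highest score of such a candidate was 823, at Eip75B. How often such candidates occur over all regions was not computed, so their counts describe the members only.

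Core regions at the members were mostly intronic. Introns held 21 of the 27 (77.8%, interval 59.2 to 89.4%), against 35.7% of all core regions, and promoters held 5 (18.5%, interval 8.18 to 36.7%), against 47.9%. Positions up to 1000 bp before and 200 bp after a start site were classed as promoter first, whatever else they overlapped. By replicate list the share of member summits in promoters was 18.7 ± 4.73% (SD, n = 3), against 47.7 ± 1.79% of all summits. Long genes have more intron, however. In the territories of all genes of at least 20 kb, 67.7% of core regions were intronic and 29.8% were in promoters, and both shares lie within the intervals for the members. Only 3 of the 5 promoter regions belonged to a start site of a member, at EcR, usp and Eip75B. Counted by start site, 3 of the 37 distinct start sites of the members had a core region in the promoter (8.11%), against 14.9% of all 19630 start sites of protein-coding genes. The 37 include 9 of br, some of them close together, so they are not independent. Neither an interval nor a share for long genes was computed here, so a difference is not resolved.

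Of the 27 core regions, 22 lay more than 1 kb from any protein-coding start site (81.5%, interval 63.3 to 91.8%). The share was 46.9% over all core regions and 65.4% over those in the territories of genes of at least 20 kb, and the latter lies within the interval for the members. The nearest start site belonged to another gene for 5 of them. The median distance from a start site of a member to the nearest core region was 8368 bp. The first intron of at least 1 transcript held 15 of the 27, but only 4 lay in the first intron of every transcript that spanned them. First introns of transcripts that start inside the gene were counted too. No share of first introns was computed over all core regions, so whether these counts differ from the genome is not known. The strongest region of Eip74EF, 1 of the 15, lay in the first intron of 2 of the 5 transcripts that spanned it. It was 9301 bp from the nearest start site of Eip74EF and 52306 bp from the most upstream one.

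**Figure D4:**
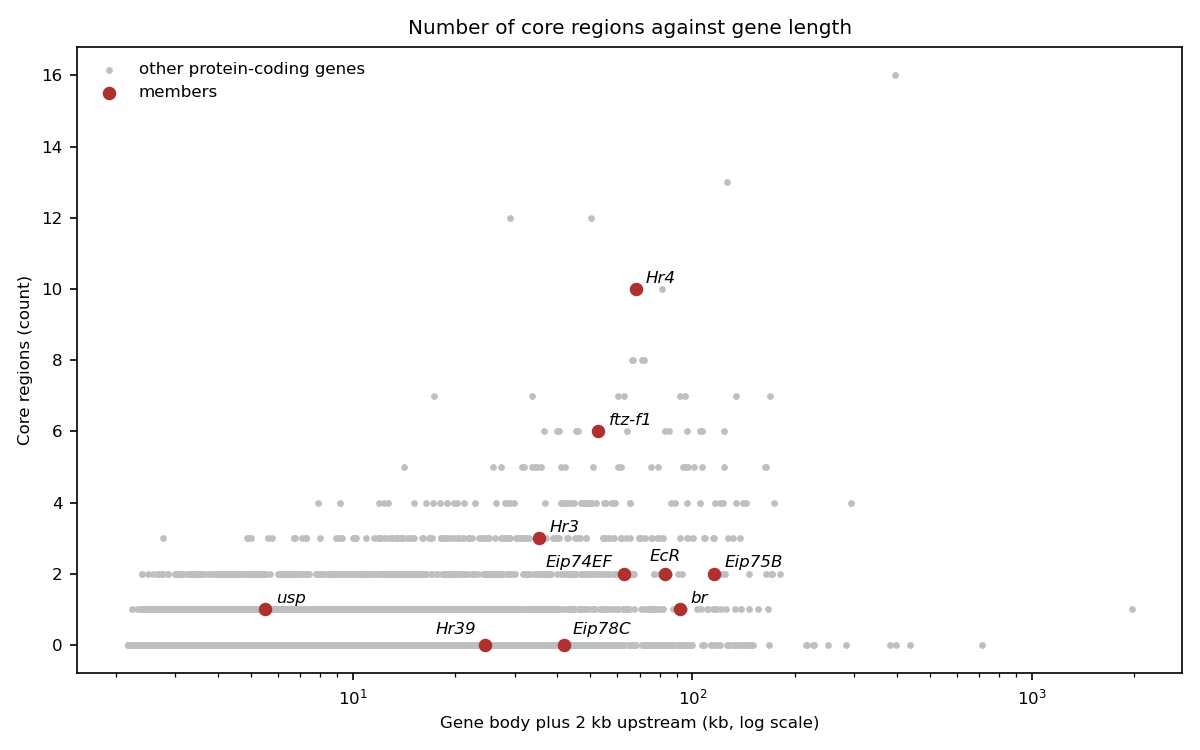
Number of core regions against territory length in kb (log axis) for every protein-coding gene, with the 10 members in red. Hr4 at 10 and ftz-f1 at 6 stand above most genes of their length, EcR, Eip74EF, Eip75B and br hold 1 or 2 in 62.7 to 115.7 kb, and Hr39 and Eip78C lie at 0.

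Signal strength at the members was that of the genome. The median of the mean percentiles was 51.9 over their 27 core regions and 52.9 over all 3463, and the quartiles were 34.3 and 76.0 for the members and 34.9 and 74.3 for all. The weakest core region of a member, at ftz-f1, stood at 4.25 and the strongest, at Hr3, at 98.2. Intervals narrower than 300 bp made up 8 of the 27 (29.6%), against 36.8% of all. They included the strongest regions of Hr4, ftz-f1, br and Eip75B, but not that of Hr3. The width is that in the list with the highest percentile, and it differed between lists. At Eip75B it was 139 bp in replicate 2 but 340 and 350 bp in replicates 1 and 3. At br it was 210 and 173 bp in replicates 1 and 2 but 350 bp in replicate 3. At Hr3 it was 309 bp in replicate 1 and 290 and 292 bp in replicates 2 and 3.

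GC content fell at the summits. In 100 bp windows it was 34.4 ± 10.4% (SD, n = 27) at the members' core summits and 42.7 ± 8.21% in windows 500 bp away, and it was below the flank at 21 of the 27 (77.8%), against 85.8% of all core regions. Over all core regions it was 31.1% at the summit and 43.6% in the flank. By replicate list, GC at the members' summits averaged 34.8 ± 1.22% (SD, n = 3) and at all summits 31.9 ± 0.943%. The range over the members was wide, from 15 to 61%, and the highest value belonged to the Hr4 window that held CACGC.

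**Figure D5:**
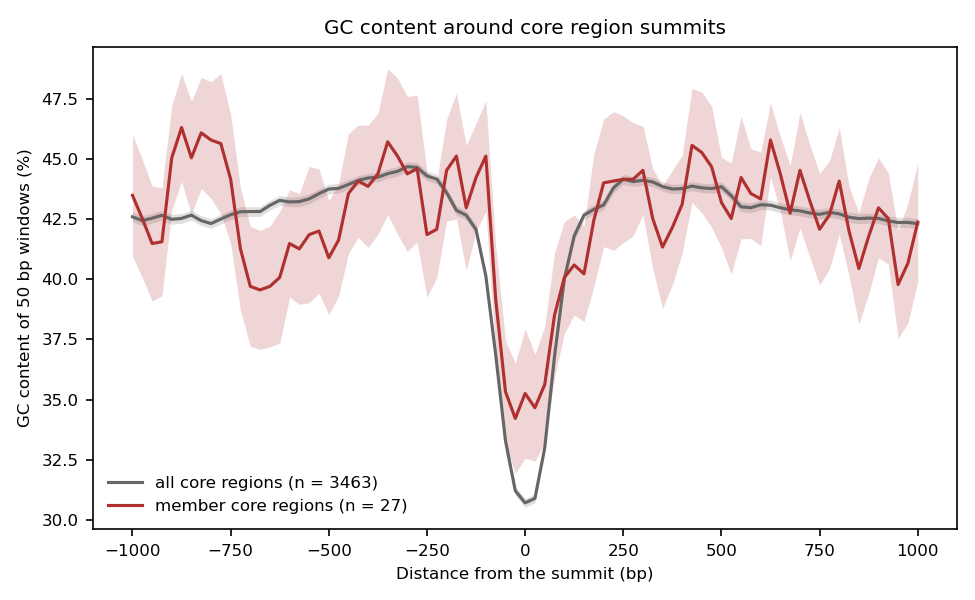
Mean GC content (%) of 50 bp windows against distance from the core summit (bp), with shading of 1 standard error, for the 27 core regions of the members and for all 3463. Both fall at the summit, the members to 35.3% and all regions to 30.7% in the central window.

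Other lists of ecdysone-related genes gave a range of counts beside the 23.1% of all genes. Of 13 other nuclear receptor genes, 6 held a core region, 7 regions in all. The strongest was 131 bp upstream of a start site of Hr96, a receptor involved in lipid and xenobiotic metabolism, at 87.2 ± 3.12 (SD, n = 3). That of ERR, the estrogen-related receptor, stood at 78.1 ± 6.998 (SD, n = 3), and the regions of Hnf4 and eg followed at 51.3 and 49.8. These 4 regions, the strongest of the 6 genes', were in promoters. Among the members, the strongest region was in a promoter at usp, br and Eip75B and in an intron at Hr3, Hr4, ftz-f1, EcR and Eip74EF. None of 11 genes of ecdysone synthesis and turnover, among them spo, phtm, dib, sad, shd and Cyp18a1, held a core region. Their median territory was 4.67 kb, shorter than every member's, and the longest were nvd with 78.8 kb and spok with 33.7 kb. What accounts for the absence was not tested.

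Of 8 genes of ecdysone transport and receptor cofactors, 5 held a core region, 17 regions in all. The strongest lay 246 bp upstream of a start site of E23, an ABC transporter that lowers the ecdysone response, at 97.6 ± 0.404 (SD, n = 3). Those of the chaperone gene Hsp83, the corepressor gene Smr and the coactivator gene tai stood at 87.3, 84.9 and 76.4. Of 19 other ecdysone-induced genes, 4 held a core region, 7 regions in all. These were the small heat shock gene Hsp27 at 97.7 ± 0.564 (SD, n = 3), ImpL2, which encodes a secreted inhibitor of insulin signalling, at 93.7 ± 2.10 (SD, n = 3), Eip63E, which encodes a cyclin-dependent kinase, at 91.0 ± 3.71 (SD, n = 3), and Eip63F-1 at 77.2 ± 13.2 (SD, n = 3). Of the 4, Hsp27 had its region in the promoter. The lists were short and their genes differed in length, so these counts are descriptions of the lists and no test was made between them.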

How the data were processed

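The authors' peak lists of 3 replicates, on dm6 per the labels, were used as deposited; the aligner, the peak caller and the read depth were not given in the sources used here. Per the deposited readme, each list came from the replicate's filtered alignments and a control, and peaks were called per replicate. The deposited signal is the authors' enrichment in unstated units and served here for ranks inside each list, and the lists differ in length. The deposited score runs to 1000, and the thresholded lists start at 830, an irreproducible discovery rate of 0.01; the ranked lists give this rate as −log10, deposited by the authors. The summit is the start plus the deposited offset.

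Thresholded summits on the major arms were joined at 150 bp by single linkage, and a core region, placed at its highest-percentile summit, is in 2 or more lists. Gene models were Ensembl release 115. With 1 group and no control arm there was no test, and spreads are SDs over 3 lists. All 10 members were named, with at most 4 genes from each other list (the strongest core regions) and other genes where they are the nearest start site, overlap a member or have as many core regions as Hr4; overlapping genes were named after their values were seen. Members and lists were chosen with earlier results of these data known. The authors' conservative list of the whole series was used as an alternative, and its other 7 lists were not used here. Python 3.11.15, pandas 2.3.3, numpy 2.4.6 and scipy 1.17.1 were used, and the joining and counting were tested on simulated lists.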

Additional observations from a re-analysis of the deposited data

How the results depend on the processing

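No paired analysis was possible because there is 1 group and no result comes from a test. Members with a core region numbered 7 to 10 under every alternative except start sites within 1 kb, which gave 3, with 3 core regions in all. Apart from the rule of all 3 lists, the share of all genes was not computed under these alternatives. The counts therefore do not compare the members with other genes. Hr39 and Eip78C gained a region with 10 kb on either side of the gene, and usp lost its own with peaks above the median of each list. That setting gave 12 core regions and 1 start site, and the authors' conservative list gave 45 core regions, counted as single peaks. Leaving out each replicate gave 19 to 25 core regions, a promoter share of 20 to 26.3% and a GC content of 35.0 to 35.8%. Requiring all 3 lists gave 27.8% in promoters and 35.9% GC, and a 200 bp window gave 36.6% GC. ACGTG was in 4 windows of the conservative list and in 1 of 200 bp, and AGGTCA in 1 of 200 bp. The causes were not tested. In all, 59 of the alternative values at summary level, some of them among those above, were within 1.5 times or 1 SD of the main one and 15 were not. Of those for single genes 71 were and 11 were not. Read depth limits which weak candidates pass, and it is not known here.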

Other observations

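Of the 10 core regions of Hr4, 6 lay within 12889 bp, from the one 1714 bp upstream of its start site to the one 11175 bp downstream. When core regions with neighbours within 5 kb were joined over the whole genome, 2543 groups resulted, and 9 of them, this one included, held 6 or more regions. The longest such group at ftz-f1 held 3 regions within 1131 bp, and 195 groups held 3 or more. Hr3 had a pair of regions 4918 bp apart, and at each of EcR, usp, Eip74EF, br and Eip75B no core region had another within 5 kb. The distance of 5 kb was chosen after the positions were seen.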
